A study of Homo sapiens with 12 samples.

Results

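The RNA response to Nutlin-3a was examined in HCT116 cells depleted of RFX7. HCT116 is a human colorectal carcinoma line with intact p53, and Nutlin-3a blocks the binding of p53 to its ubiquitin ligase MDM2, so that p53 accumulates without DNA damage. Cells carrying an siRNA against RFX7 (siRFX7) or a control siRNA (siControl) received 10 µM Nutlin-3a or the solvent DMSO for 24 h, and polyA RNA was sequenced in 3 replicates of each of the 4 groups. All 12 libraries came from this 1 line. The labels do not say whether replicates were separate cultures, so p-values measure the spread between these libraries, which may be technical, and they do not give the siRNA sequences or their number. The genes described here are the 11517 protein-coding genes whose mean normalized count over all libraries reached 50, out of 23195 genes listed for siRFX7 with Nutlin-3a against siRFX7 with DMSO, of which 14515 are protein-coding. Just inside that limit stood TECTA and ACP7, and just outside it UTS2 and ANG, all with means that round to 50.

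p53 is a transcription factor that binds its response elements and raises genes for cell cycle arrest, cell death, DNA repair and metabolism. Most genes that fall after p53 activation do so indirectly: the cyclin-dependent kinase inhibitor p21 keeps retinoblastoma family proteins bound to E2F factors and in the DREAM complex, which sits on CHR and E2F elements of cell cycle promoters. RFX7 is a DNA-binding factor of the regulatory factor X family that acts downstream of p53 on a set of growth-restraining genes.

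The deposited values are statistics of group comparisons, so values of single libraries were not used here, and levels are given as recovered group means in normalized counts, each over 3 libraries. "Rose" and "fell" are used for genes that the authors' deposited table lists with an adjusted p under 0.05 for Nutlin-3a against DMSO in siRFX7 cells, and "called" means the same. A standard error (SE) belongs to the log2 fold change, Nutlin-3a over DMSO. The median SE of the 11517 genes was 0.0859 on the log2 scale. It was 0.0670 at mean normalized counts of 1000 or more and 0.216 between 50 and 100. In siRFX7 cells the recovered group means summed to 25915992 normalized counts with DMSO and 26901959 with Nutlin-3a, and the depth of single libraries is unknown. Of 9 markers of intestinal epithelium, 6 had a mean normalized count of 50 or more. Of 14 markers of immune cells, fibroblasts and endothelium, COL1A1 alone reached 50, with a mean of 441, and the highest immune marker had a mean of 2.05.

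RFX7 (chromosome 15, 56087280 to 56243266, minus strand; positions are GENCODE 29 on GRCh38) was low in both siRFX7 groups. Its level was 185 normalized counts with DMSO and 302 with Nutlin-3a, against 944 and 1332 in the siControl groups. Nutlin-3a raised the remaining RFX7 RNA, with a log2 fold change of 0.71 (SE 0.10) in the authors' deposited table for siRFX7 cells and 0.50 in that for siControl cells. The group with Nutlin-3a thus held more RFX7 RNA than its own control while both stayed below either siControl group.

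Of the 11517 genes, 4089 rose and 3317 fell, while 4111 were not called. Which direction held more genes depended on the scaling: with group totals set equal, 3613 were called higher and 3820 lower. Across all 23195 listed genes 41.4% were called, and among the 11517 the share was 64.3%, with 35.5% called higher and 28.8% called lower. Most changes were small: 4314 of the called genes moved by less than 0.58 on the log2 scale, and the median of the called genes was 0.49 for those that rose and -0.50 for those that fell. The rises and falls differed in shape at the extremes. A log2 fold change of at least 2 was reached by 105 genes that rose, and one of -2 or below by 308 that fell. Beyond 4 in size the counts were 8 and 120, and beyond 6 they were 1 and 37. Of the genes not called, 3761 had a 95% interval inside -0.58 to 0.58. The median log2 fold change over all 11517 genes was 0.0346, and lists are to be read against that value and the shares called above.

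**Figure D1:**
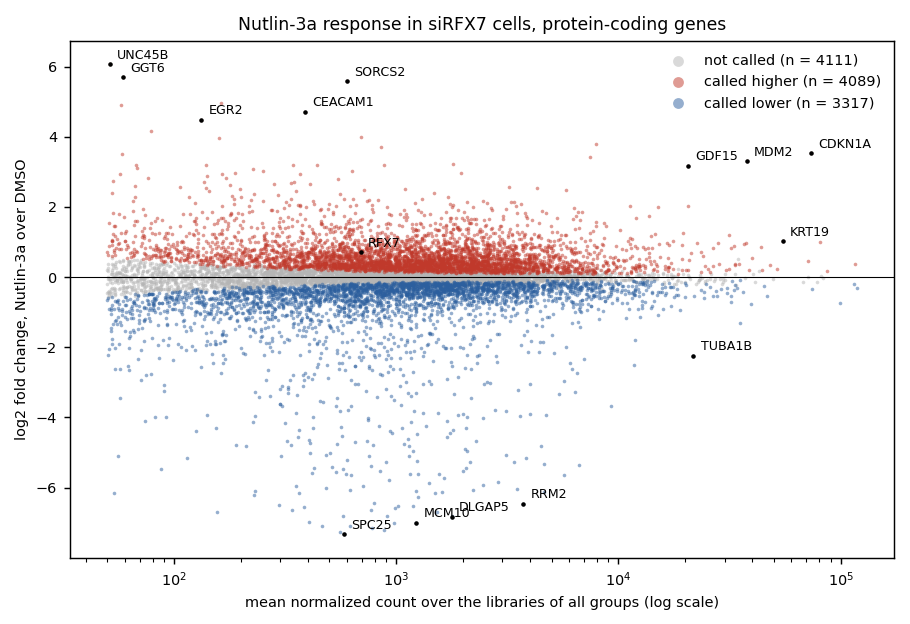
Log2 fold change (Nutlin-3a over DMSO, siRFX7 cells, from the authors' deposited table) against the mean normalized count on a log scale, 1 point for each of 11517 protein-coding genes, with red for 4089 called higher, blue for 3317 called lower and grey for 4111 not called. Falls reach further from 0 than rises over most of the range, while CDKN1A, MDM2 and GDF15 stand alone at the upper right.

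The RNA pool shifted with these changes. Genes that rose by at least 1 on the log2 scale held 2.48% of the summed normalized counts with DMSO and 7.09% with Nutlin-3a, and genes that fell by at least 1 held 4.73% and 1.10%. CDKN1A alone went from 0.0517% to 0.576% of the total and from rank 231 to rank 1 among the 20026 genes with recovered group means. These are shares of normalized counts from polyA RNA, not corrected for transcript length, so they do not count molecules. Fewer cells of a type and less RNA per cell cannot be told apart in bulk samples.

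Most genes listed as p53 targets rose, in each of 5 lists by role. The lists were written with earlier results of these data known, and binding of p53 was not measured. Of 64 genes in 5 lists of p53 targets, 60 were measured at the stated minimum, 52 rose and 1 fell, with a median log2 fold change of 1.21. CDKN1A (ENSG00000124762; chromosome 6, 36676460 to 36687339, plus strand), which encodes the cyclin-dependent kinase inhibitor p21, went from 13389 to 154897 normalized counts, a 11.6-fold rise (95% interval 10.2 to 13.2). MDM2 (ENSG00000135679; chromosome 12, 68808176 to 68850686, plus strand), the ligase that degrades p53 and is itself a p53 target, went from 6591 to 64905, or 9.85-fold (9.04 to 10.7). Both also rose in siControl cells.

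Among genes of the feedback list, 9 of 10 rose and RCHY1 was not called. TP53INP1, a stress protein that promotes p53 phosphorylation and autophagy, rose from 813 to 4792 normalized counts, and ZMAT3, an RNA-binding p53 target, from 1337 to 5141. The arrest list had 11 of 12 genes raised. GDF15, a secreted stress cytokine, rose 9.01-fold from 3401 to 30643 normalized counts, SFN, the 14-3-3 protein that holds cyclin B in the cytoplasm, rose 4.11-fold from 8089 to 33252, and BTG2, an antiproliferative adaptor of deadenylases, rose 5.53-fold from 1766 to 9772. CDKN1C, another cyclin-dependent kinase inhibitor, was the exception, with 257 normalized counts before and 226 after treatment and no call.

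All 15 measured genes of the cell death list rose. The largest rise was that of TP53I3, a quinone oxidoreductase linked to oxidative stress, from 1194 to 16422 normalized counts, or 13.8-fold (11.7 to 16.1). FAS, the receptor of FAS ligand, rose 4.25-fold from 798 to 3393, and the decoy receptor TNFRSF10C rose 4.14-fold from 167 to 693. In the repair and nucleotide list 8 of 10 genes rose: POLH, a polymerase that copies past ultraviolet damage, rose 3.22-fold, FDXR, a mitochondrial electron carrier, rose 2.75-fold, and RRM2B, the p53-inducible ribonucleotide reductase subunit, 2.76-fold. DDB2, which recognises ultraviolet damage, and POLK were not called. The list of sestrins, autophagy and metabolism had 10 of 14 genes raised, led by ABCA12, a lipid transporter, at 13.1-fold from 120 to 1572 and ALOX5, the leukotriene-forming lipoxygenase, at 5.14-fold from 70.7 to 363. ULK2, an autophagy kinase, was the 1 p53 list gene that fell, from 280 to 207 normalized counts. SESN3, a sestrin described below, also fell but is not in these lists.

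**Figure D2:**
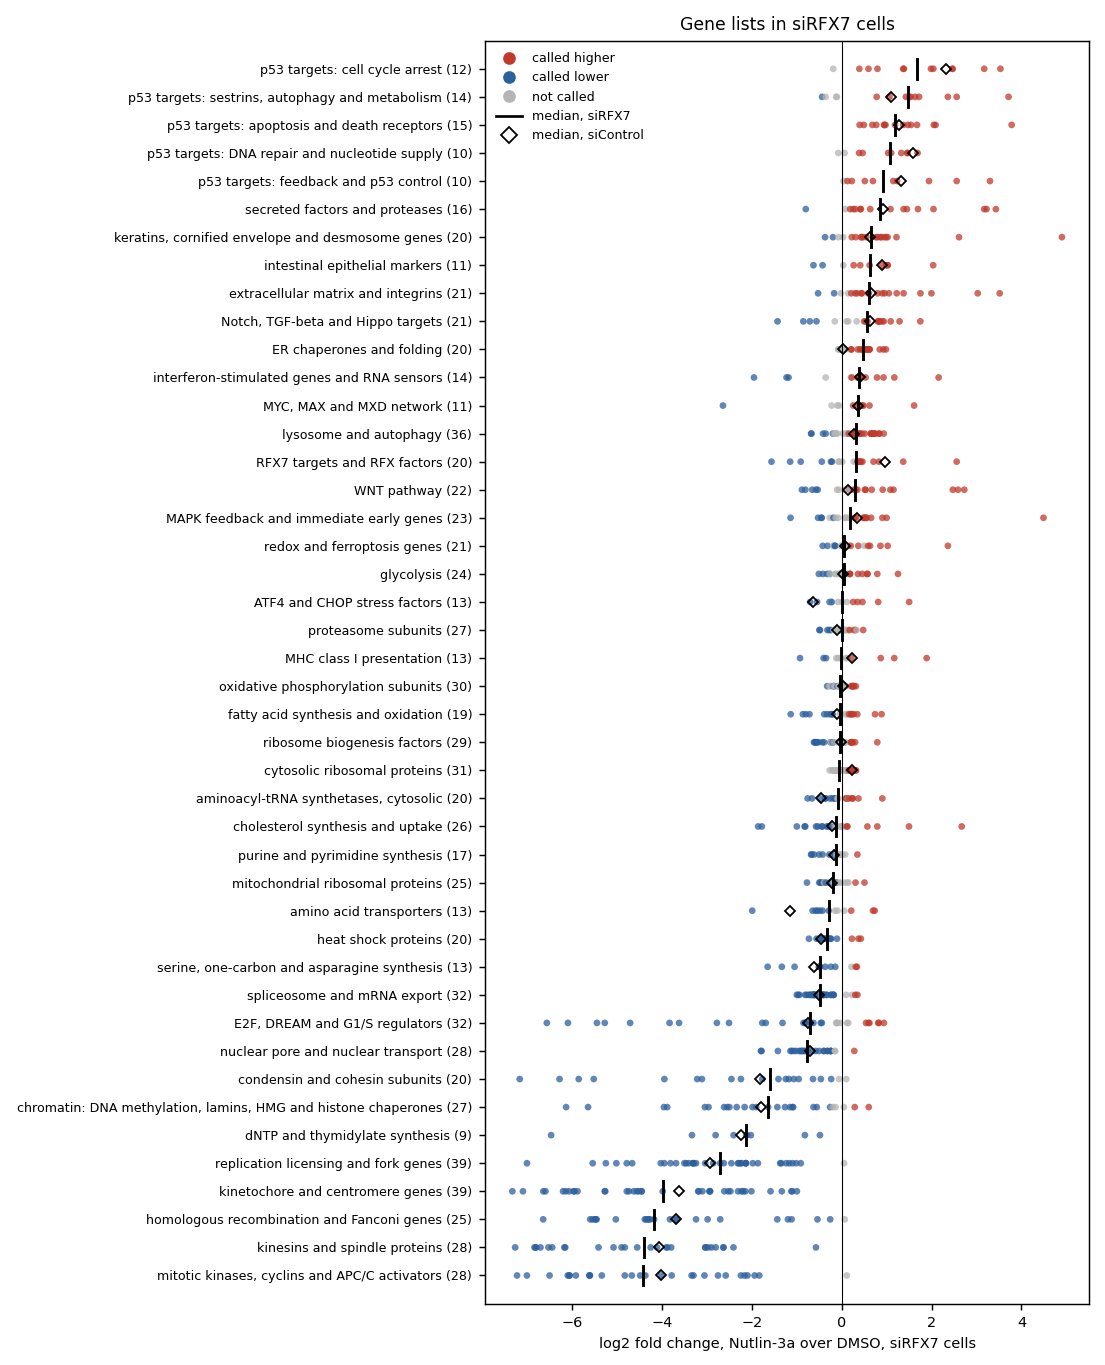
Log2 fold change (Nutlin-3a over DMSO) in siRFX7 cells for the measured genes of 44 lists, 1 point per gene, coloured by call, with a bar at the list's median and an open diamond at the median of the same genes in siControl cells. Counts of measured genes stand in brackets. The 5 p53 lists have the highest medians and the mitotic, spindle, repair, kinetochore and replication lists the lowest.

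Genes of cell division fell together. In 7 lists covering replication, nucleotide supply for DNA, homologous recombination, mitotic kinases, kinetochores, the spindle and chromosome structure, 188 of 189 genes were measured, 183 fell, none rose by the deposited adjusted p, and the median log2 fold change was -3.31. At -4 or below were 76 of them. Several of the largest falls were those of mitotic genes. ESCO2, ZNF367, MCM10 and FAM111B, described below, were also among the 10 largest falls. SPC25, a subunit of the NDC80 complex that ties kinetochores to microtubules, fell from 1027 to 6.40 normalized counts, with a log2 fold change of -7.33 (SE 0.34) in the authors' deposited table. NEK2, a kinase that separates centrosomes, fell from 1558 to 10.4, and CKAP2L, a spindle protein, from 931 to 6.06. The kinetochore partner SKA1 fell from 780 to 5.72, and DLGAP5, which stabilises kinetochore fibres, from 3340 to 29.3. Under Nutlin-3a these 5 genes lay between 5.72 and 29.3 normalized counts.

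All 39 kinetochore genes, all 28 kinesins and spindle genes and 27 of 28 mitotic kinases, cyclins and their partners fell, with median log2 fold changes of -3.98, -4.40 and -4.43. GTSE1, which lets cells leave the G2 checkpoint, fell from 1728 to 13.5 normalized counts. CENPA, the histone H3 variant of centromeres, fell from 570 to 5.72, KIF18B, a microtubule-shortening kinesin, from 1433 to 12.8, and CDC25C, the phosphatase that starts mitosis, from 548 to 6.06. The classical drivers of mitotic entry, named here after their values were seen, kept more RNA: CCNB1 went from 8148 to 287, PLK1 from 5841 to 88.2 and CDK1 from 3769 to 148. The 1 mitotic list gene not called was FZR1, an activator of the anaphase-promoting complex in late mitosis and G1, at 1724 and 1864.

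Replication genes fell less far than mitotic genes. Of 39 licensing and fork genes 38 fell, with a median log2 fold change of -2.70. MCM10, which activates the replicative helicase, fell from 1855 to 14.5 normalized counts, CLSPN, the checkpoint adaptor claspin, from 1409 to 30.3, and GINS2, a helicase subunit, from 2303 to 60.6. PCNA, the sliding clamp and also a p53 target, was the 1 replication gene not called, at 11574 and 12008 normalized counts. The 9 genes of deoxynucleotide synthesis all fell: RRM2, the S-phase subunit of ribonucleotide reductase, fell 88.3-fold from 5887 to 66.6, while RRM2B, its p53-inducible counterpart, rose 2.76-fold from 4961 to 13674. TK1, thymidine kinase, fell 10.1-fold. In homologous recombination and the Fanconi pathway 24 of 25 genes fell, with a median of -4.17. They included EXO1, a nuclease that resects broken ends, from 1344 to 13.5, the helicase BLM, from 769 to 16.5, and EME1, a subunit of a junction-cutting nuclease, from 683 to 14.1.

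Chromosome structure and chromatin genes mostly fell. Among condensin and cohesin genes 18 of 20 fell, with a median of -1.59. The cohesin acetyltransferase ESCO2 fell from 1302 to 9.09 normalized counts and the condensin I subunits NCAPH and NCAPG from 2141 to 27.6 and 4972 to 86.2. Of 27 genes for DNA methylation, lamins, HMG proteins and histone chaperones 22 fell and 2 rose. ASF1B, the proliferation-linked histone chaperone, fell from 2736 to 39.0, HMGB2, a DNA-bending protein, fell from 9305 to 186, and LMNB1, lamin B1, fell 15.5-fold from 5924 to 382. LMNA, the gene of lamins A and C, rose from 18658 to 28330, and HMGA2 from 4872 to 5958. The 2 lamin genes thus moved in opposite directions.

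Regulators of the G1/S step did not move as 1 block: of 32 measured, 20 fell, 6 rose and 6 were not called. FOXM1, the factor that drives mitotic genes, fell 43.6-fold from 3109 to 71.4 normalized counts. CCNE2, a cyclin of S-phase entry, fell from 699 to 7.41 and CDKN2C, an inhibitor of CDK4 and CDK6, from 390 to 5.72. In the other direction, CCND1, cyclin D1, rose 1.78-fold from 17738 to 31488, and CDKN2B, the p15 inhibitor, rose 1.92-fold from 146 to 281. Outside these lists ZNF367, a zinc finger factor, fell from 1102 to 8.08 and FAM111B, a protease, from 815 to 6.39. Among the most abundant RNAs, TUBA1B fell 4.74-fold from 33250 to 7020 and TUBB 2.47-fold from 47810 to 19334. Both encode tubulins.

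The promoters of genes that fell carried cell cycle elements near the start site more often than other promoters. The sequences below are 60 bases from RefSeq promoter windows (GRCh38.p14, 250 bases before to 50 after an annotated start), written 5′ to 3′ on the gene's strand. They are shown because these genes are among the extremes above and hold a searched motif, whose matches are in capitals. The CHR is the element that the DREAM complex and its MuvB core contact. For the first 5, the capitals mark only letter matches to it, searched as TTTGAA or TTTAAA on both strands. Matches to other motifs were left in lower case, among them an E2F form in the SPC25 stretch.
SPC25, chr2:168890401-168890460, minus strand: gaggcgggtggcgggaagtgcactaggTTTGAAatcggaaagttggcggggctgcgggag
CKAP2L, chr2:112764594-112764653, minus strand: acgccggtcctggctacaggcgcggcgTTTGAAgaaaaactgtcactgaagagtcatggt
CENPA, chr2:26786011-26786070, plus strand: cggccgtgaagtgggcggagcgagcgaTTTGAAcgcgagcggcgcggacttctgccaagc
NCAPG, chr4:17810917-17810976, plus strand: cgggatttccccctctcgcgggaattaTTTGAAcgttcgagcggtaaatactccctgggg
RRM2, chr2:10122682-10122741, plus strand: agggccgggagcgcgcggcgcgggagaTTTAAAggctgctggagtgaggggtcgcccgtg
In these 5 genes the element began 3 to 35 bases before the start site. The next 3, of replication genes and ZNF367, have capitals at the E2F site, searched as TTTCCCGC, TTTGGCGC or TTCCCGCC on both strands. These forms can overlap each other, so that the capitals can run past 8 letters.
GINS2, chr16:85688952-85689011, minus strand: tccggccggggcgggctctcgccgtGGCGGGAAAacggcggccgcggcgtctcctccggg
CLSPN, chr1:35769950-35770009, minus strand: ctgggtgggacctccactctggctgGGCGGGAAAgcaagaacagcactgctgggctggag
ZNF367, chr9:96418358-96418417, minus strand: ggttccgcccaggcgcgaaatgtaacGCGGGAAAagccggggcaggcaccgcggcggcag
Few raised genes held the last element shown. Those of 2 are printed with capitals at a p53 response element, searched by its name as 2 adjoining decamers with no spacer and up to 2 departures outside their core letters.
FAS, chr10:88991289-88991348, plus strand: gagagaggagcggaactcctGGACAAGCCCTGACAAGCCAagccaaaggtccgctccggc
PTCHD4, chr6:48111178-48111237, minus strand: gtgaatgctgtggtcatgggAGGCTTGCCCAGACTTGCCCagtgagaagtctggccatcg
A match is a string of letters in a window and was not tested for binding.

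Of the 11517 genes, 9426 symbols matched the table, with 13884 windows, since a gene can have several overlapping starts. Wilson 95% intervals cover counting error only. A CHR was found in 16.5% of these windows, in 29.1% (26.1 to 32.2) of those of genes that fell by at least 1 on the log2 scale, in 39.9% (34.8 to 45.3) of those that fell by at least 2, and in 56.2% (47.6 to 64.5) of those that fell by at least 4. Among genes that rose by at least 1 it was in 17.3% (14.8 to 20.2). The share in all 35116 windows of the table was 24.0%. CCAAT boxes, bound by NF-Y and searched as CCAAT on both strands, rose in the same order, from 34.6% of the genes' windows to 73.4% (65.2 to 80.3) at falls of at least 4. They were in 34.6% of all windows of the table as well.

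The 2 branches of the cell cycle differed in their elements. In windows of the mitotic, kinetochore and spindle lists a CHR was present in 60.4% (50.6 to 69.4) and an E2F site in 11.9% (6.93 to 19.6). In those of the replication list a CHR was present in 4.65% (1.28 to 15.5) and an E2F site in 46.5% (32.5 to 61.1). E2F sites were in 6.97% of the 13884 windows and 4.59% of all windows in the table. In windows of genes that fell by at least 1, 2 and 4 their share was 17.5% (15.1 to 20.3), 22.5% (18.4 to 27.3) and 20.3% (14.3 to 28.1), and in those of genes that rose by at least 1 it was 4.61% (3.32 to 6.37). CHR and CCAAT occurred together in 44.5% of windows of genes that fell by at least 4, against 6.45% of the 13884, and in none of the 43 windows of the replication list, where a count of 0 allows up to 8.20%. Mean GC content was 61.7% in the windows of genes that fell by at least 4 and 64.1% over the genes' windows, and a motif share was not corrected for it.

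Matches also sat at particular distances. In windows of genes that fell by at least 4, the bin from 0 to 25 bases after the start held a CHR in 16.4% and the 2 bins before it in 13.3% and 12.5%, against 1.41%, 1.12% and 1.68% over the 13884 windows. CCAAT boxes of the same genes were most frequent from 75 to 50 bases before the start, at 30.5% against 9.51%. The letters GTTGCC, a core of the X-box that RFX factors bind, was in 12.6% of the 13884 windows, in 9.76% (7.82 to 12.1) of those of genes that rose by at least 1 and in 12.7% (10.6 to 15.2) of those that fell by at least 1, and in 12.2% of all windows. The CRE core TGACG was in 31.9% of the 13884 windows and 24.6% of all. It was in 24.9% (21.9 to 28.2) of those of genes that rose by at least 1, and in 30.5% (27.5 to 33.7), 36.3% (31.4 to 41.6) and 41.4% (33.2 to 50.1) of those of genes that fell by at least 1, 2 and 4. A p53 response element was found in 3 of 738 windows of genes that rose by at least 1 and in 2 of 76 windows of the p53 lists, against 55 of all 35116, and in none of 833 windows of genes that fell by at least 1, where a count of 0 allows up to 0.459%.

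**Figure D3:**
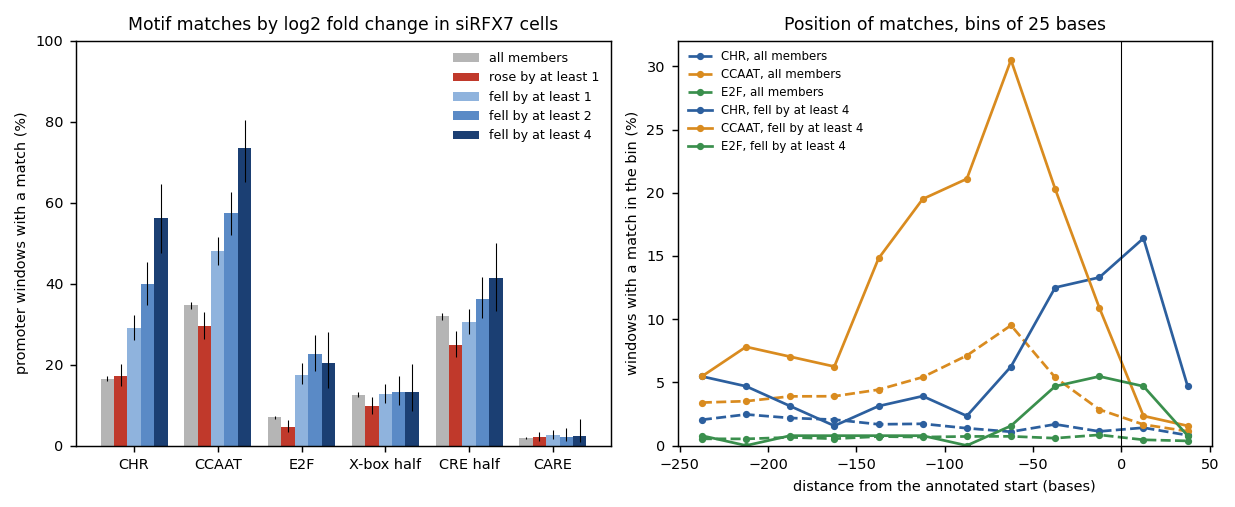
Left: percent of promoter windows with a match to each motif, by class of log2 fold change in siRFX7 cells, with Wilson 95% intervals as bars of error. Right: percent of windows with a match whose centre lies in each 25-base bin of distance from the annotated start, for all 11517 genes (dashed) and for genes that fell by at least 4 (solid). CHR shares climb from 16.5% over all genes to 56.2% in the deepest falls, and their matches gather at the start site while CCAAT boxes peak upstream of it.

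Beyond the cell cycle, genes that process and export RNA fell modestly. Of 32 spliceosome and export genes 28 fell and 2 rose, with a median log2 fold change of -0.48. SNRPB, a core protein of spliceosomal particles, fell from 8427 to 4219 normalized counts, SRSF2, a splicing factor, from 11113 to 5685, and ALYREF, an export adaptor, from 9557 to 4981. SF3A3 and SF3A1, subunits of a splicing factor of the U2 particle, rose from 4667 to 5952 and 6049 to 7459. In the nuclear pore and transport list 25 of 28 fell, with a median of -0.76: NUP107 fell 3.47-fold, KPNA2, an importin, 3.44-fold and NUP85 2.67-fold. POM121, a membrane anchor of the pore, rose from 1915 to 2326.

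Protein production showed smaller and mixed changes. Of 31 cytosolic ribosomal protein genes 6 rose and none fell by the deposited adjusted p, with a median of -0.05. RPL10 rose from 8902 to 11113 normalized counts and RPS20 from 20889 to 25816. Ribosome biogenesis factors split into 7 that rose and 11 that fell out of 29. NOP56 and FBL, proteins of the snoRNA particles that modify ribosomal RNA, fell from 9203 to 6092 and 8745 to 5832, and MRTO4 from 4347 to 2833, while POLR1A, the largest subunit of RNA polymerase I, rose 1.73-fold from 4033 to 6984. Of 25 mitochondrial ribosomal proteins 13 fell and 2 rose, with MRPL11 lowest, from 3468 to 2031. Heat shock proteins fell in 16 of 20 cases: HSP90AA1, the inducible HSP90 chaperone, fell from 132710 to 80102 and TCP1, a chaperonin subunit, from 22503 to 15276. The 3 that rose included HSF1, the heat shock factor, from 3755 to 5046, and the co-chaperone BAG3. Of 27 proteasome subunits 18 were not called, and the list's median was 0.01, or -0.04 with group totals set equal.

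Chaperones of the endoplasmic reticulum moved the other way from cytosolic ones. Of 20 genes 15 rose and none fell by the deposited adjusted p, with a median of 0.47, against 0.03 for the same genes in siControl cells. DNAJB9, a co-chaperone of the folding sensor pathway, rose 1.98-fold from 424 to 840 normalized counts. HYOU1, a large chaperone of the lumen, rose 1.80-fold from 8961 to 16113, and SEC61A1, the channel of the translocon, 1.90-fold from 12587 to 23943. HSPA5, the main HSP70 of the lumen, was named after its values were seen: it rose from 33271 to 48603 in siRFX7 cells, and its siControl means were 40082 and 37310. In 11 of the 20 genes the log2 fold change was larger in siRFX7 than in siControl by a two-sided z test of the difference, adjusted over all listed genes, and in none was it smaller. Over all 11517 genes this difference was called above 0 in 6.18% and below 0 in 4.83%, or 11.0% in all. The called difference of SEC61A1 was lost when group totals were set equal.

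Genes of amino acid supply fell, and fell less than in siControl cells. ATF4, the factor that raises these genes when amino acids are short, fell from 6895 to 4717 normalized counts in siRFX7 cells and from 14166 to 5128 in siControl cells, so that the groups differed with DMSO and lay close together with Nutlin-3a. Of 13 genes for serine, one-carbon and asparagine synthesis 10 fell and 2 rose. PHGDH, the first enzyme of serine synthesis, fell from 4392 to 1402, ASNS, asparagine synthetase, from 60.2 to 23.9, and SHMT1, a serine hydroxymethyltransferase, from 1709 to 826, while PSPH, the last enzyme of serine synthesis, rose from 1706 to 2159. The difference from siControl was called above 0 in 8 of the 13.

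Amino acid transporters fell in 7 of 13 genes and rose in 3. SLC1A4, a neutral amino acid carrier, fell from 316 to 79.4 normalized counts in siRFX7 and from 650 to 40.0 in siControl, a difference of 2.03 (SE 0.22) on the log2 scale. SLC7A1, the carrier of cationic amino acids, fell from 3295 to 2206, and SLC7A6 and SLC36A1 rose from 1718 to 2859 and 353 to 571. Of the 13 differences 9 were called above 0 and none below. The list's median log2 fold change was -0.29 in siRFX7 and -1.15 in siControl. Aminoacyl-tRNA synthetases, which load tRNAs, split into 7 that rose and 9 that fell of 20, with AARS falling from 7054 to 4173 and SARS rising from 5501 to 10299. In siControl AARS fell from 13611 to 4295, and SARS was at 9431 and 8945. Differences were called above 0 in 12 of the 20 and below 0 in 2.

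The stress factors of this pathway had mixed directions. Among 13 genes 5 rose and 4 fell in siRFX7, against 4 and 8 in siControl, and 9 differences were called above 0. SESN2, an amino acid sensor that p53 and ATF4 both raise, rose 2.83-fold from 911 to 2580 normalized counts, and ATF3 rose 1.76-fold. JDP2, a bZIP repressor, fell from 348 to 214. CHAC1, which degrades glutathione, and DDIT3, the factor CHOP, were named after their values were seen. CHAC1 was at 182 and 155 in siRFX7 with no call and fell from 888 to 135 in siControl. DDIT3 was at 292 and 276 with no call and fell from 725 to 199. In CHAC1, DDIT3 and ATF4 the siControl DMSO group stood highest of the 4. In this list the median was 0.01 and changed sign, to -0.04 and -0.02, when totals were set equal or the median gene was set to 0.

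The promoters of 3 of these genes are shown with capitals at the composite element of C/EBP and ATF factors through which ATF4 acts, searched as TGATGNAA on both strands.
ASNS, chr7:97872443-97872502, minus strand: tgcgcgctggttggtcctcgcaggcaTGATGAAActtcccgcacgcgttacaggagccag
SLC1A4, chr2:64989366-64989425, plus strand: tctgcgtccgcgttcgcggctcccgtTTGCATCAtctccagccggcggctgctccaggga
AARS, chr16:70289660-70289719, minus strand: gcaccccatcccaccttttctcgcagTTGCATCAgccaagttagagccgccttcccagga
The element was found in 1.87% of the 13884 windows, in 2.03% (1.24 to 3.33) of those of genes that rose by at least 1, in 2.52% (1.65 to 3.82) of those of genes that fell by at least 1 and in 3.62% of all windows.

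**Figure D4:**
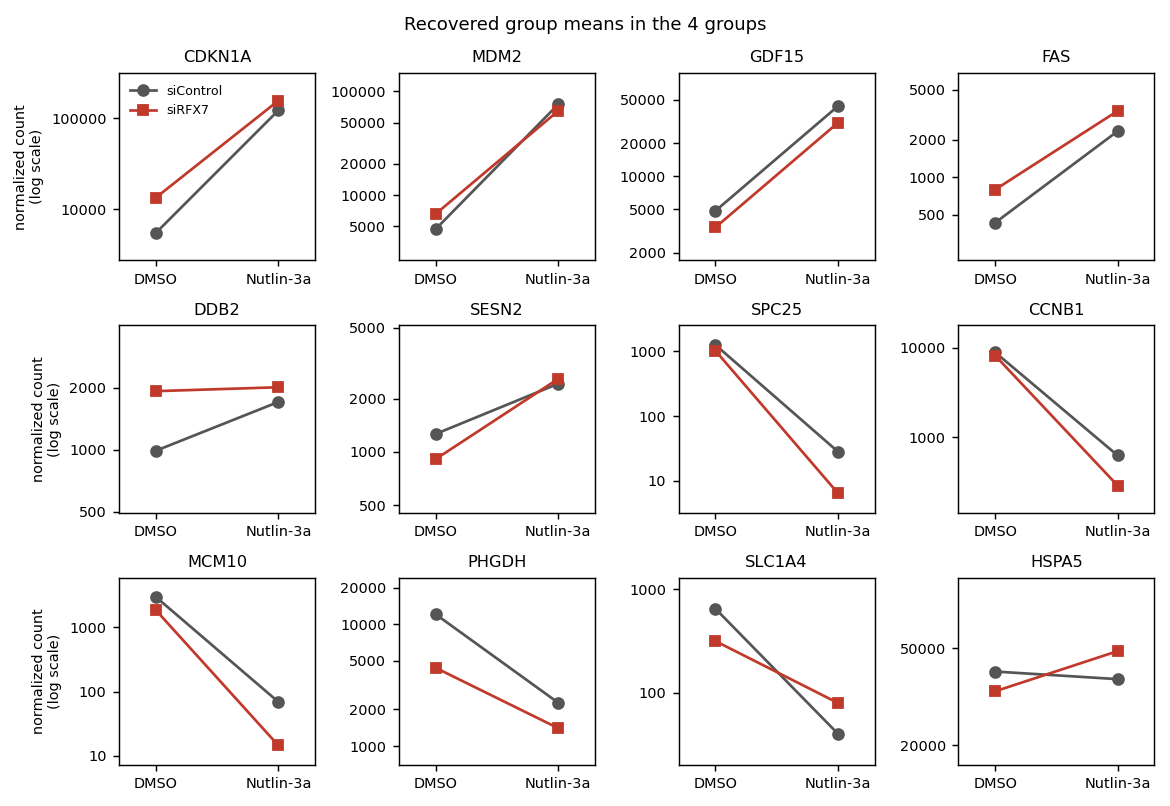
Recovered group means (normalized counts, log scale, 3 libraries per group, error not available per group) of 12 genes with DMSO and Nutlin-3a, siControl in grey circles and siRFX7 in red squares. CDKN1A, MDM2, GDF15 and FAS climb under both siRNAs, SPC25, CCNB1 and MCM10 drop further under siRFX7, and PHGDH and SLC1A4 start lower and drop less.

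Lipid and energy metabolism changed in parts. Of 26 genes of cholesterol synthesis and uptake 12 fell and 6 rose. EBP, a sterol isomerase, fell 3.63-fold from 1798 to 496 normalized counts, and INSIG1, which retains the sterol sensor in the endoplasmic reticulum, 3.43-fold from 1510 to 441. ABCA1, the cholesterol exporter, rose 6.37-fold from 113 to 719, and TM7SF2, a sterol reductase, 2.82-fold. In fatty acid metabolism 9 of 19 genes fell and 7 rose: the elongase ELOVL5, the desaturase FADS1 and the acyl-CoA synthetase ACSL3 fell from 2224 to 1222, 2256 to 1298 and 3813 to 1738, and the oxidation enzyme CPT2 rose from 874 to 1617. Purine and pyrimidine synthesis had 9 of 17 genes lowered and 1 raised, with PRPS1, GMPS and PRPS2 down from 2556 to 1595, 4157 to 2615 and 2268 to 1480, and DHODH, a step of pyrimidine synthesis, up from 663 to 845.

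Glycolysis genes were near no change as a list, with a median of 0.04 (-0.01 with group totals set equal), while 8 of 24 rose and 4 fell. SLC2A1, the glucose transporter GLUT1, rose 2.38-fold from 10977 to 26163 normalized counts, PFKFB3, an activator of phosphofructokinase, from 2075 to 3595 and HK1, a hexokinase, from 3383 to 5050, whereas LDHA, lactate dehydrogenase, fell from 28826 to 21596. Of 30 nuclear genes of oxidative phosphorylation 20 were not called. Lysosome and autophagy genes rose in 23 of 36 cases and fell in 5, with a median of 0.32. TFEB, the factor that activates lysosomal genes, rose 1.91-fold from 200 to 383, GABARAPL1, an autophagosome protein, 1.79-fold and CTSD, a lysosomal protease, 1.78-fold. GLA, an alpha-galactosidase, fell from 883 to 554 and ATG10 from 299 to 187. Redox genes had a median of 0.05 (-0.01 with group totals set equal), with 7 of 21 raised and 4 lowered. HMOX1, heme oxygenase, rose 2.03-fold, SAT1, which breaks down polyamines, 1.82-fold, and GPX4, which guards lipids from peroxidation, fell from 6561 to 4895.

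Genes of the cell surface and the extracellular space mostly rose. In the list of secreted factors and proteases 14 of 16 rose and 1 fell, with a median of 0.86. SERPINB5, the serpin maspin, rose 10.8-fold from 1440 to 15522 normalized counts, and FGF2, a growth factor, fell from 337 to 194. Of 30 genes in that list 10 were under the minimum, and without a minimum the median was 0.36. Matrix and integrin genes rose in 17 of 21 cases: COL5A1 went from 13.0 to 148, COL17A1, a hemidesmosome collagen, from 187 to 1525 and LAMA3, a laminin chain, from 509 to 2032. FN1, fibronectin, fell from 643 to 447.

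Keratins and desmosome genes rose in 16 of 20 cases, with a median of 0.66. CLCA2, a p53 target of stratified epithelia, went from 5.38 to 161 normalized counts, TRIM29 from 75.3 to 460 and KRT15 from 405 to 943, while KRT80 fell from 814 to 630. Intestinal epithelial markers rose in 8 of 11 cases: KRT19 went from 34434 to 69960 and CLDN4, a tight junction protein, from 3663 to 7438. EPCAM, an adhesion protein of the same cells, fell from 9303 to 6019. S100A6, a calcium-binding protein and one of the most abundant RNAs, rose 2.30-fold from 19982 to 46017.

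Signalling genes had mixed directions. WNT pathway genes rose in 13 of 22 cases and fell in 5: the ligands WNT7A, WNT4 and WNT9A rose from 23.4 to 155, 29.2 to 175 and 249 to 1381 normalized counts, while AXIN2 and SP5, targets of WNT signalling, fell from 1230 to 666 and 93.8 to 53.6. In the Notch, TGF-beta and Hippo list 13 of 21 rose and 4 fell. NOTCH3 and the ligand JAG1 rose 3.36-fold and 2.13-fold, ID3 rose 2.44-fold, and the Notch targets HES4 and HES1 fell from 886 to 330 and 611 to 338. Of 23 MAPK feedback and immediate early genes 11 rose and 5 fell: EGR2 rose from 13.9 to 313 and FOSL2 and FOSL1 from 1877 to 3753 and 1684 to 3155, while FOS fell from 74.1 to 33.7 and ETV5 from 1843 to 1280. In the MYC network 7 of 11 rose, MYC itself 1.40-fold from 6420 to 8964 and its antagonist MXD1 3.06-fold, and MXD3, a proliferation-linked relative, fell 6.24-fold.

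Immune-related genes expressed by these cells changed gene by gene. Of 14 interferon-stimulated genes and RNA sensors at the minimum, 9 rose and 3 fell, with a median of 0.38 that became 0.06 over all listed genes of the list. TLR3, a sensor of double-stranded RNA, rose 4.46-fold from 115 to 514 normalized counts, ISG15 2.25-fold and IRF1 1.91-fold, while OAS3, an RNA sensor of the OAS family, fell 3.86-fold from 1955 to 506 and IRF7 fell from 87.5 to 37.4. In class I antigen presentation 4 of 13 rose and 3 fell. TAP1, a peptide transporter, rose 3.71-fold from 2043 to 7573, and the trimming enzymes ERAP2 and ERAP1 rose from 38.6 to 86.8 and 334 to 610, whereas PSMB9 fell from 81.9 to 43.1.

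Among the genes described here, the largest rises were held by genes with little RNA before treatment. The minimum of 50 applies to the mean over all libraries, so a gene low with DMSO could pass it through its Nutlin-3a level. In siRFX7 cells 85 genes had a mean under 50 with DMSO and at least 50 with Nutlin-3a, and 219 had the reverse. How far this choice and the ratio to a low starting level shape the pattern was not tested. UNC45B, a myosin chaperone, went from 2.22 to 149 normalized counts, a ratio of 67.0 (95% interval 30.3 to 148), and GGT6 from 2.22 to 114, a ratio of 51.7 (23.7 to 113). SORCS2, a sorting receptor, rose 47.9-fold from 20.6 to 986, HMCN2, a matrix protein, 30.9-fold from 13.3 to 411, and CEACAM1, an adhesion molecule, 26.2-fold from 41.8 to 1096. PTAFR, the receptor of platelet-activating factor, rose 15.8-fold from 104 to 1653, PLA2G4D, a phospholipase, 18.0-fold from 10.1 to 183, and AKR1B10, an aldo-keto reductase, 15.6-fold from 23.8 to 372. Of these 8 genes SORCS2 alone had a called difference from siControl, with -1.26 on the log2 scale (SE 0.32).

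Genes that rose and fell also differed in RNA properties. The median longest annotated transcript was 3804 bases for genes that rose by at least 1 and 3184 for genes that fell by at least 1, against 3515 over all. Transcript GC content had medians of 55.3%, 45.6% and 48.9% in the same order. These properties can act on measured counts, and their part in the result was not tested.

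The design also allows the response to be compared between the 2 siRNAs, and the outcome differed by gene group. Loss of RFX7 and other effects of the siRNA cannot be told apart in this comparison. In both siRNA conditions 3333 of the 11517 genes rose and 2894 fell. A called difference between the siRNAs was found for 1268 genes, 712 above 0 and 556 below, and 136 of these differed by at least 1 on the log2 scale. When group totals were set equal the split was 546 above and 660 below. The comparisons under the 2 siRNAs share no library, and across the 11517 genes Pearson's r of their log2 fold changes was 0.949, as a description over genes that share libraries within each comparison.

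**Figure D5:**
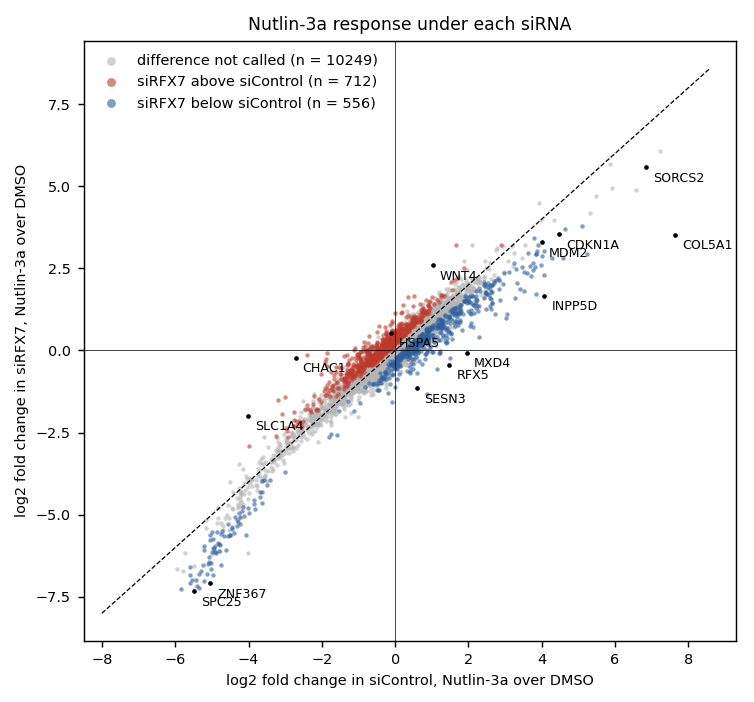
Log2 fold change (Nutlin-3a over DMSO) in siRFX7 cells against that in siControl cells for 11517 genes, with red for 712 genes whose difference was called above 0, blue for 556 below 0, grey for the rest, and a dashed line of equality. Most deep falls at the lower left and most strong rises at the upper right lie below the line, and CHAC1 and SLC1A4 lie above it.

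The deepest falls went further in siRFX7 cells. To keep the choice apart from the siRFX7 values, genes were taken by their siControl response: 112 had a log2 fold change of -4 or below there. Of these, 62 fell more in siRFX7 with a called difference, 2 fell less, and the median difference was -0.80. Their median level was 1376 normalized counts with DMSO and 28.8 with Nutlin-3a in siRFX7, against 1691 and 64.0 in siControl. SPC25 reached 6.40 in siRFX7 and 28.1 in siControl, from 1027 and 1264. ZNF367 reached 8.08 and 40.0, a difference of -2.04 (SE 0.34), and NEK2 10.4 and 46.7, a difference of -1.88 (SE 0.32). Over the 7 cell division lists 55 of 188 differences were called below 0 and 11 above. The replication list was the other way, with 7 above and 4 below.

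Many of the strongest rises were smaller in siRFX7 cells, on a higher starting level, and the size of this depended on how genes were chosen. Among 105 genes with a siRFX7 log2 fold change of at least 2, 42 differences were called below 0 and 7 above. Their median difference was -0.36. Among 136 genes whose mean log2 fold change over both siRNAs was at least 2, 72 differences were called below 0 and 3 above, with a median of -0.63. Their median level went from 126 to 707 normalized counts in siRFX7 and from 66.9 to 513 in siControl, so the siRFX7 group was the higher one at both points. CDKN1A showed the same order, at 13389 and 154897 in siRFX7 and 5493 and 121149 in siControl, a difference of -0.93 (SE 0.13). INPP5D, an inositol phosphatase, went from 220 to 695 against 35.7 to 597, KRTAP2-3 from 139 to 458 against 45.7 to 662, and PTCHD4, whose match to the p53 element is printed above, from 121 to 239 against 25.4 to 208. FER1L6 went from 16.1 to 123 against 2.33 to 87.2 and COL5A1 from 13.0 to 148 against 0.359 to 70.9, where the siControl DMSO means are at or below 3 counts. In KRTAP2-3 and MDM2 the order changed: the siRFX7 group was higher with DMSO and lower with Nutlin-3a, for MDM2 64905 against 74982. GDF15 had no called difference and was lower in siRFX7 at both points.

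Within the p53 lists 29 of 60 differences were called below 0 and 5 above. DDB2, named after its values were seen, was at 1928 and 2014 in siRFX7 and rose from 988 to 1708 in siControl. The 5 above 0 were E2F7, TNFRSF10A, APAF1, SESN2 and PRKAB1, of which APAF1, the core of the apoptosome, rose from 943 to 3012 in siRFX7 and from 882 to 2121 in siControl.

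Most known RFX7 targets and RFX factors had a lower log2 fold change in siRFX7 than in siControl. Of 20 measured, 10 rose, 6 fell and 14 differences were called below 0, none above. The median log2 fold change was 0.31 in siRFX7 and 0.96 in siControl. Such targets were in part defined by experiments of this kind, so the list is not independent evidence of its direction. TP53INP1 and PLK2, a stress kinase, still rose, PLK2 from 3930 to 10152 against 2033 to 9489. RFX5, a factor of MHC class II promoters, fell from 919 to 676 where it rose from 1118 to 3104 in siControl, a difference of -1.92 (SE 0.11). SESN3, a sestrin, fell from 146 to 66.0 and rose from 157 to 236. TSPYL2 fell from 320 to 108 and was at 673 and 635 in siControl. MXD4 and PDCD4, a MYC antagonist and a translation inhibitor named after their values were seen, were not called in siRFX7, at 360 and 344 and at 509 and 487, and rose from 715 to 2766 and 885 to 2032 in siControl. In RFX5, SESN3, MXD4 and PDCD4 the siControl Nutlin-3a group was the highest of the 4.

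Genes called in opposite directions numbered 51: 37 rose in siRFX7 and fell in siControl, and 14 the reverse. The difference was called in all 51, which calls of opposite sign make nearly certain, so it adds no separate evidence. SOX4, a developmental factor, fell from 10486 to 6867 normalized counts in siRFX7 and rose from 7747 to 10349 in siControl. MAMDC2 and KLRC2 followed the same pattern, and SYNE3, a nuclear envelope protein, the reverse, from 123 to 206 against 205 to 151. BEST1, a chloride channel, fell from 174 to 70.1 with an SE of 0.47 in the authors' deposited table. It was not called in siControl. Being called under 1 siRNA alone was seldom a difference by itself: of 719 genes called higher in siRFX7 only, 133 had a called difference above 0, and of 409 called lower in siRFX7 only, 49 had one below 0.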

How the data were processed

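PolyA RNA of 12 HCT116 libraries was measured, and 4 result tables, each comparing 2 of the 4 groups of 3, were used. No table holds values of single libraries, so no count model was fitted here. Per the submitters' processing notes the genome build was hg38 and the tools named were bcl2fastq 2.20.0.422, Trimmomatic 0.39, FastQC 0.11.9, cutadapt 2.10, SAMtools 1.10, Picard, featureCounts 1.6.5 and DESeq2 1.20.0. The aligner, the annotation and the handling of strand are not given in the sources used here, so reads of a gene and its antisense or near-identical copy may not be told apart.

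The mean normalized count, baseMean per the file headers, is a signal, by that name an average of size-scaled values over all libraries. Each log2 fold change with its error was used as the authors deposited it. The test statistic is a score, the log2 fold change over its error in the deposited tables. The deposited p-value came raw and adjusted, and a repeat of the Benjamini-Hochberg adjustment over 23195 genes returned the deposited values. Adjusted p-values are listed as 0 for 84 of the genes described.

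Group means were solved from the mean normalized count and the 4 sets of fold changes (Python 3.11.15, pandas 2.3.3, numpy 2.4.6, scipy 1.17.1). Tables between siRNAs were taken as siRFX7 over siControl, since fold changes then closed to within 1.29e-14 around the 4 groups. The difference between siRNAs was the siRFX7 minus the siControl log2 fold change, with a two-sided z test on the root of the summed squared errors and Benjamini-Hochberg adjustment over 23195 genes. It takes the errors as known. Promoter windows came from RefSeq (GRCh38.p14), which has 35116 windows of 300 bases.

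The genes, the 45 lists (1024 genes) and the tests were chosen with earlier results of these data known. Genes were named by rule: RFX7, MDM2 and CDKN1A, the 10 largest rises and falls, for each list the 3 largest changes in its main direction and the 2 largest against it, 8 abundant genes, and the 5 largest differences and opposite responses; other genes named as examples or exceptions were picked after their values were seen. Some genes that the rule names are not reported here. Alternatives changed the p limit, a minimum change, the scaling, the minimum mean and the biotypes.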

Additional observations from a re-analysis of the deposited data

Results flagged for a closer look

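A two-sided z test of the siRFX7 minus siControl log2 fold change, adjusted over all listed genes, called a difference for 1268 of the 11517 genes. Differences of named genes follow on the log2 scale. Each was flagged because the response to Nutlin-3a differed between the siRNAs.

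Among genes that rose, the difference was -0.93 for CDKN1A, -0.69 for MDM2, -0.65 for SFN, -1.12 for TP53INP1, -0.93 for ABCA12 and -1.23 for ALOX5. It was -0.67 for KRT19, -0.59 for S100A6 and -1.26 for SORCS2. The largest were -4.11 for COL5A1, -2.40 for INPP5D, -2.30 for FER1L6, -2.14 for KRTAP2-3 and -2.05 for PTCHD4, and the errors of COL5A1 (1.23) and FER1L6 (0.65) were the widest of these 5.

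Among genes that fell, it was -2.04 for ZNF367, -1.88 for NEK2, -1.87 for DLGAP5, -1.84 for SPC25, -1.79 for GTSE1, -1.75 for ESCO2, -1.57 for MCM10, -1.49 for SKA1, -1.46 for FAM111B and -1.42 for CKAP2L. These 10 were chosen by their siRFX7 value, which by itself favours a difference below 0. TUBA1B and TUBB fell less in siRFX7, with 0.39 and 0.52, and SLC1A4 had 2.03.

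BEST1 (-2.18) fell in siRFX7 and was not called in siControl. Genes that fell in siRFX7 and rose in siControl were RFX5 (-1.92), SESN3 (-1.73), MAMDC2 (-1.29), KLRC2 (-1.07) and SOX4 (-1.03). SYNE3 did the reverse (1.19).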

How the results depend on the processing

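The counts of genes that rose and fell stayed within 1.5 times their value at an adjusted p below 0.01, under both rescalings, at a minimum mean of 10 or 200, with no minimum and over every biotype. Their balance did not: with equal group totals 3613 genes were called higher and 3820 lower. With the median gene at 0 the counts were 3765 and 3630. A minimum change of 0.58 on the log2 scale left 1664 risen, 1428 fallen and 418 with a called difference. A z test against the interval from -0.58 to 0.58 left 883, 811 and 65, by its construction. An adjusted p below 0.01 left 785 differences. Of list medians, that of the ATF4 stress factors became -0.04 with equal group totals and -0.02 with the median gene at 0, those of the redox and glycolysis genes became -0.01 with equal totals, and that of the proteasome subunits became -0.04 and -0.03 under these rescalings in turn. The call of NDUFA8 was lost with equal totals. No paired analysis was possible because the deposited tables hold no values of single libraries. For the same reason a replicate block and leaving out each replicate were not run, so which calls rest on 1 library is unknown. The rescalings shifted log2 fold changes in siRFX7 by 0.0539 and 0.0346. Errors are those of the authors' model: at means of 50 to 100 the median SE of 0.216 limits what can be called, and 49.1% were called there against 69.3% in the most abundant genes.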

Other observations

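Genes encoded in mitochondrial DNA rose in siRFX7 cells. They were picked after their values were seen. Of 13 protein-coding mitochondrial genes 12 rose in siRFX7 cells, with a median log2 fold change of 0.95 in the authors' deposited table, and MT-ND6 was not called. MT-CO1, a subunit of cytochrome oxidase, went from 42804 to 77284 normalized counts and MT-ND1, a subunit of NADH dehydrogenase, from 9741 to 20864. The 13 together held 0.854% of normalized counts with DMSO and 1.57% with Nutlin-3a in siRFX7, against 0.450% and 0.649% in siControl, where 7 rose. No difference between siRNAs was called for any of the 13, and their errors were wide, 0.10 to 0.29. The 30 nuclear genes of oxidative phosphorylation had a median of -0.03, with 6 risen and 4 fallen.

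Other families, also picked after their values were seen, are to be read against the 35.5% called higher and 28.8% called lower over the 11517 genes. All 8 clustered histone genes at the minimum rose, among them HIST1H2BD from 151 to 449 normalized counts and HIST1H2BK from 207 to 454. Together they held 0.00473% of normalized counts with DMSO and 0.00864% with Nutlin-3a in siRFX7. The libraries are of polyA RNA, so histone RNA without a polyA tail was not measured, and total histone RNA is unknown. All 8 also rose in siControl, with a median log2 fold change of 1.59 against 1.06 in siRFX7. For 4 of them the difference was called below 0, and for none above. Of 19 collagen genes 15 rose and none fell by the deposited adjusted p, with COL4A5 going from 607 to 1476. Among 15 semaphorins, guidance cues of the cell surface, 9 rose and 1 fell, with SEMA3F from 486 to 1842 and SEMA3B from 284 to 1010. Of 35 centrosome-related CEP genes 22 fell and 6 rose. Of 17 tubulin and gamma-tubulin complex genes 8 fell and 3 rose in siRFX7. Their median log2 fold change was -0.03 in siRFX7 and -0.58 in siControl. The difference was called above 0 in 8 of the 17 and below 0 in 1. TUBA1A, by contrast, fell from 1517 to 698 in siRFX7, and its log2 fold change in siControl was 0.00 in the authors' deposited table.

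Noncoding RNAs lie outside the genes described above. Of 158 lincRNAs with a mean of at least 50, 46 rose and 39 fell, so that 53.8% were called. Of 1451 processed pseudogenes 192 rose and 378 fell, so that 39.3% were called. The share called was 64.3% among the 11517 protein-coding genes. Reads of processed pseudogenes and those of parent genes are near-identical and uncertain to separate. H19 rose from 156 to 1332 normalized counts and MIR22HG, the host of miR-22, from 65.5 to 207, while CRNDE fell from 143 to 38.8.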
